A study of Paulownia elongata with 6 samples.

Results

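The 100 most abundant leaf transcripts of Paulownia elongata, a fast-growing tree, were followed in 6 RNA-seq libraries. They were chosen by level: transcripts were ranked by their median TPM over all 6 libraries, and the first 100 of 43380 transcript models were taken. TPM is Salmon's abundance estimate: reads divided by a model's effective length and scaled to the same total in each library. Models of 3 components (TR67422, TR15294 and TR9893, 6 models in all) had been left out, because their share follows fragment length and not temperature. A transcript model is a predicted coding sequence, and its identifier gives a component (TR), gene (g), isoform (i) and model (m) number. Since TPM values chose the models, their levels and shares are given as a description, without a test.

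The leaves came from plants labelled 3 years old with 14 days of growth in potting soil. The heat group holds 3 libraries of plants exposed for 24 hours to 40 °C under 12 hours light and 12 hours dark. The control group holds 3 libraries of plants labelled 25 °C. The light regime is recorded with the control libraries too, in a note worded for the heat stress. No genotype or other agent is labelled. Whether replicates are different plants is not labelled, so each p-value refers to variation among libraries that may be only technical. The question asked of these models is how far the most abundant leaf transcripts differed between the temperatures.

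In leaves generally, a few nuclear genes of photosynthesis, such as those for the small subunit of Rubisco and the chlorophyll a/b-binding proteins, make up much of the messenger RNA. Heat is known in plants to raise transcripts of heat shock proteins, chaperones that bind unfolded proteins, and to lower many transcripts of photosynthesis. The files pair none of the identifiers with a gene name, and no annotation was used here. No function is therefore given to any model, leaf markers could not be checked, and no sequence is shown.

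Libraries held 730315 to 3570524 estimated reads, so 3 reads came to between 0.840 and 4.11 CPM (reads scaled to library depth). Controls 1 and 2, the shallowest libraries, stand apart from the other libraries. In them 14122 and 14448 models had 0 reads, against 1182 to 3297 in the other libraries. Controls 1 and 2 and heat 2 also had shorter sequenced fragments, 132.7 to 140.6 bases, than heat 1, heat 3 and control 3, with 158.9 to 165.9 bases. These are called short-fragment and long-fragment libraries below. All 100 models had reads in every library and all passed the expression filter that left 23984 models for testing. The fewest reads of any of them in a library were 2.04.

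Abundance was steep at the top and flat below. Median TPM was 14249 at rank 1, 3167 at rank 10, 997 at rank 50 and 621 at rank 100, against a median of 5.06 over all 43380 models. The first model outside the list had 616. Rank 1 thus stood 23.0 times above rank 100, and 49 of the 100 models had a median above 1000 TPM.

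**Figure D1:**
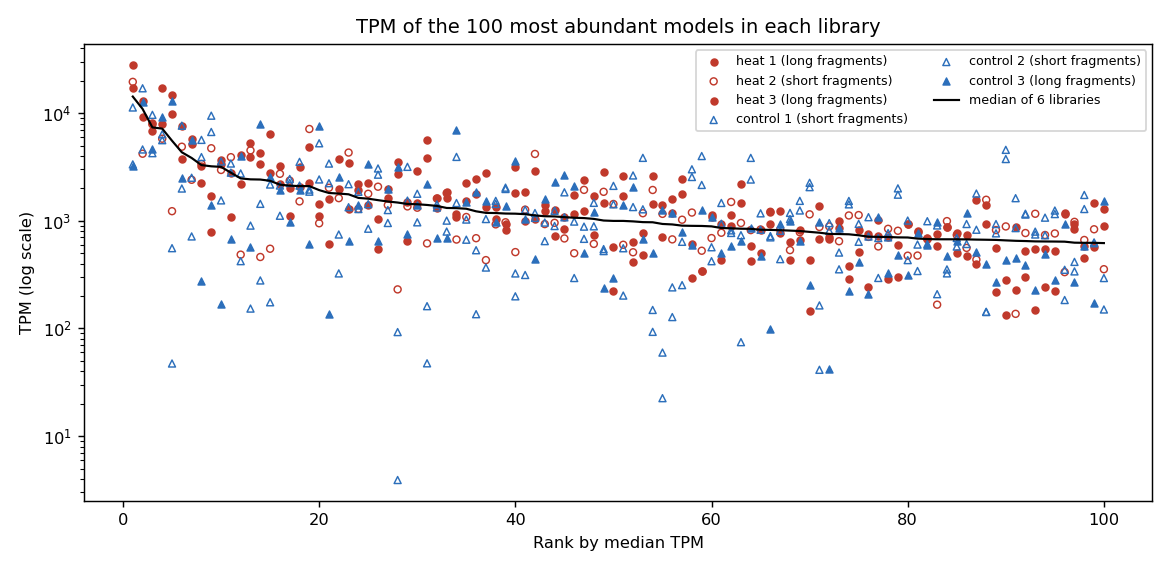
TPM of each of the 100 models in each library, on a log scale, by rank of median TPM. Red circles are heat and blue triangles are control libraries, filled where fragments were long and open where they were short, and the line is the median. The line drops from 14249 to 621 TPM, and single libraries lie far below it at some ranks.

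TR67431|c0_g1_i2|m.129804, of 204 coding bases, had the highest median. Its TPM was 28132, 19508 and 17222 in heat 1 to 3 and 3338, 11277 and 3246 in controls 1 to 3. Every heat library was above every control on this scale. In CPM with TMM scaling, which adjusts depth for composition, the groups overlapped, with 5776, 3168 and 3201 in heat and 1224, 3739 and 629 in the controls. edgeR's quasi-likelihood test gave a log2 fold change of 1.12 ± 0.80 (standard error), adjusted p = 0.365. In log2 CPM, heat minus control was 2.77 for long-fragment and 0.57 for short-fragment libraries.

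TR24054|c0_g2_i3|m.47533, of 261 bases and rank 2, had 12841, 4197 and 9114 TPM in heat and 4595, 17004 and 12752 TPM in the controls. Its groups overlapped, control 2 being the highest library and heat 2 the lowest. TR41051|c0_g1_i1|m.80382, of 180 bases and rank 3, had 8153, 7858 and 6879 TPM in heat and 4246, 9632 and 4605 TPM in the controls. It was among the steadier models, with the highest library 2.27 times the lowest.

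TR46337|c0_g1_i1|m.90939, of 189 bases and rank 4, had 17068, 5784 and 7999 TPM in heat and 5604, 6353 and 9273 TPM in the controls. Heat 1 stood well above the other libraries, and the rest overlapped. TR24054|c0_g1_i1|m.47527, of 225 bases and rank 5, had 14859, 1228 and 9851 TPM in heat and 47.3, 557 and 12850 TPM in the controls. It was high in the 3 long-fragment libraries and low in the 3 short-fragment libraries at both temperatures. The log2 fold changes of ranks 2 to 5 in edgeR's quasi-likelihood test were -0.91, -0.46, -0.04 and 0.91, with standard errors of 0.81, 0.64, 0.65 and 1.53. Their adjusted p-values ran from 0.461 to 0.974. The direction at rank 4 changed with DESeq2 size factors or library totals, to 0.10 and 0.07.

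Together the 100 models took between 12.1% and 24.4% of a library's TPM. In heat they took 24.4%, 16.4% and 17.1%, or 19.3% ± 4.46 (SD, n = 3), and in the controls 12.1%, 19.97% and 16.4%, or 16.2% ± 3.92 (SD, n = 3). The groups overlapped, and the means differed by 3.12 percentage points. Without heat 1 the difference was 0.557 percentage points and without control 1 it was 1.10, while without control 2 it was 5.02. Of the estimated reads they took 12.4% ± 3.49 in heat and 11.7% ± 2.95 in the controls (SD, n = 3), and the groups overlapped there too. The sign of that difference turned without heat 1, to -1.20 percentage points, and without control 1, to -0.755. Against control 3 alone, without controls 1 and 2, the differences were 2.87 percentage points of TPM and 0.612 of reads. Less RNA per cell and fewer cells of a type cannot be told apart in such whole-leaf shares.

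**Figure D2:**
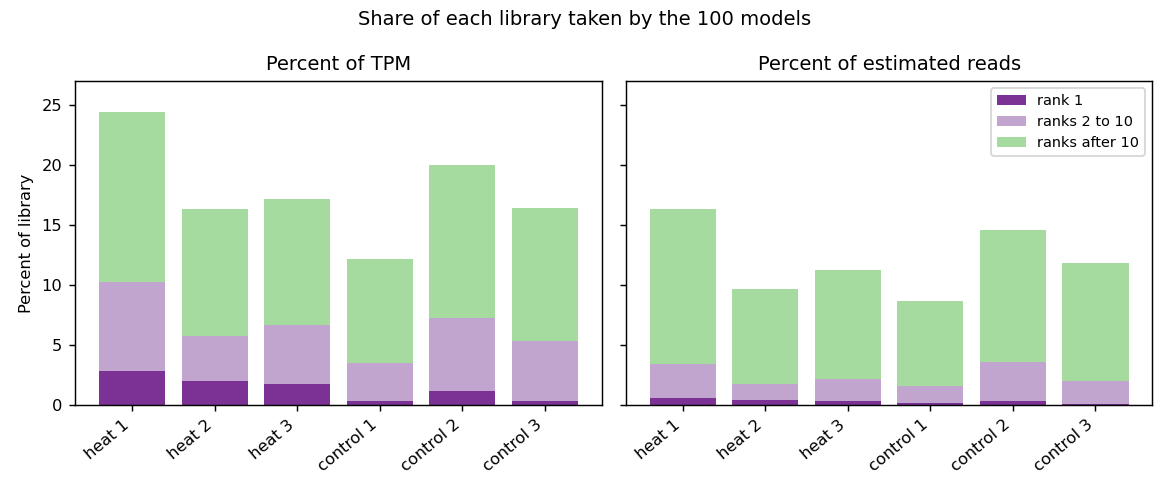
Percent of TPM (left) and of estimated reads (right) that the model at rank 1, ranks 2 to 10 and the ranks after 10 took in each library. The bars run from 12.1% in control 1 to 24.4% in heat 1 for TPM, and the heat and control libraries overlap in both panels.

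The top of the list weighed more in TPM than in reads. Rank 1 alone took 2.81%, 1.95% and 1.72% of TPM in heat and 0.334%, 1.13% and 0.325% in the controls, while its reads made up 0.530%, 0.383% and 0.3005% of heat and 0.109%, 0.323% and 0.0620% of control libraries. Ranks 1 to 10 took 3.44% to 10.3% of TPM and 1.52% to 3.55% of reads. Each library needed many more models to reach 50% of its TPM, from 697 in control 2 to 2192 in heat 2.

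Most of the 100 were short. Their coding lengths ran from 180 to 1092 bases with a median of 291, against 579 over the 23984 tested models and 369 over all models. All 100 lengths were multiples of 3. Models under 300 bases made up 53 of the 100 and 7 of the first 10, compared with 20.6% of tested and 36.9% of all models. Length takes part in the ranking, because TPM divides by effective length, the model's length less the room a fragment needs. The model at rank 3, of 180 bases, had an effective length of 33.0 to 50.6 bases across libraries. Over the 100 models, length divided by effective length had a median of 2.03 and ran from 1.16 to 4.51.

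The list depended on that division. Ranked by reads per kilobase of full coding length instead, 81 of the 100 stayed among the first 100 models, and ranked by reads alone 53 did. The 53 models under 300 bases took 11.4% ± 2.70 of TPM in heat and 10.3% ± 2.36 in the controls, but 2.59% ± 0.690 and 3.44% ± 1.05 of reads (SD, n = 3 per group). The 47 longer models took 7.90% ± 1.81 and 5.88% ± 1.89 of TPM, and 9.83% ± 2.86 and 8.23% ± 2.41 of reads (SD, n = 3 per group). In the reads, the shorter models were thus lower on average in heat and the longer models higher, as a description. Heat and control libraries overlapped for both sets.

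By the identifiers, the 100 models came from 95 genes in 91 components. For 25 of them the gene had 2 or more models, compared with 18.7% of all models, and these 25 held a median of 70.4% of their gene's TPM. Salmon divides reads between isoforms of a gene, so levels are less certain where these models are different isoforms. For some of the 25, all models of the gene lay on the same transcript, and this reason does not apply. Another model lay on the same transcript for 13 of the 100, against 13.3% of all models.

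Of the 7 components with more than 1 of the 100 models, 5 held 2 and 2 held 3. Component TR24054 held ranks 2, 5 and 14, from 3 of its genes. The model at rank 14 had 4287, 461 and 3396 TPM in heat and 279, 1436 and 7878 TPM in the controls. Like rank 5 it was lowest in control 1 and low in heat 2. Rank 2 was also low in control 1 and heat 2, but it was highest in control 2. Component TR35907 held ranks 20 and 34, isoforms of 1 gene, and rank 40 of another gene. Rank 20 had 1434, 948 and 1107 TPM in heat and 2420, 5245 and 7613 TPM in the controls. At rank 34 the values were 1158, 669 and 1085 TPM in heat and 1462, 3919 and 6903 TPM in the controls. Both isoforms were lower in every heat library than in every control, with log2 fold changes of -2.62 ± 0.62 and -2.50 ± 0.68 (standard error) and adjusted p-values of 0.0758 and 0.0798 in edgeR's quasi-likelihood test. Rank 40 had overlapping groups and a log2 fold change of 0.30 ± 1.15 (standard error).

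The same models were not the most abundant in each library. Of the 100, between 42 in control 1 and 78 in heat 2 were also in that library's own first 100, and 15 were in all 6 such lists. Those 15 included ranks 1 to 4 and rank 6. Among medians over the heat libraries alone 80 of the 100 stayed in the first 100, and among medians over the controls alone 57 did. The heat and the control lists shared 42 models. The lowest rank that a model reached in any library had a median of 306, and 16 models dropped below rank 1000 in at least 1 library.

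The highest TPM of a model was a median of 5.87 times its lowest over the 6 libraries. For the next 100 models in rank the median was also 5.87, and for the 800 after those it was 4.90. For 31 models it exceeded 10-fold, for 3 it exceeded 100-fold, and for 4 it was under 2-fold. The extremes, chosen after their values were seen, were ranks 85 and 28. TR33987|c1_g1_i1|m.66998 at rank 85, of 567 bases, had 767, 738 and 507 TPM in heat and 692, 576 and 654 TPM in the controls, a 1.51-fold range. TR65981|c0_g1_i1|m.125762 at rank 28, of 219 bases, had 3495, 231 and 2724 TPM in heat and 3.91, 92.5 and 3169 TPM in the controls. Its level was high in the 3 long-fragment libraries and low in the others, and its range of 895-fold rests on 2.04 reads in control 1.

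Over the 100 models, Spearman's rho of TPM was 0.83 between heat 1 and heat 3 and 0.85 between controls 1 and 2. Control 3 correlated with heat 1 and heat 3 at 0.48 and 0.61, and with controls 1 and 2 at -0.07 and 0.15. Heat 2 correlated with heat 1 and heat 3 at 0.39 and 0.36, with controls 1 and 2 at 0.47 and 0.34, and with control 3 at -0.09. These are descriptions over 100 models that were chosen by level and share libraries and depth.

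**Figure D3:**
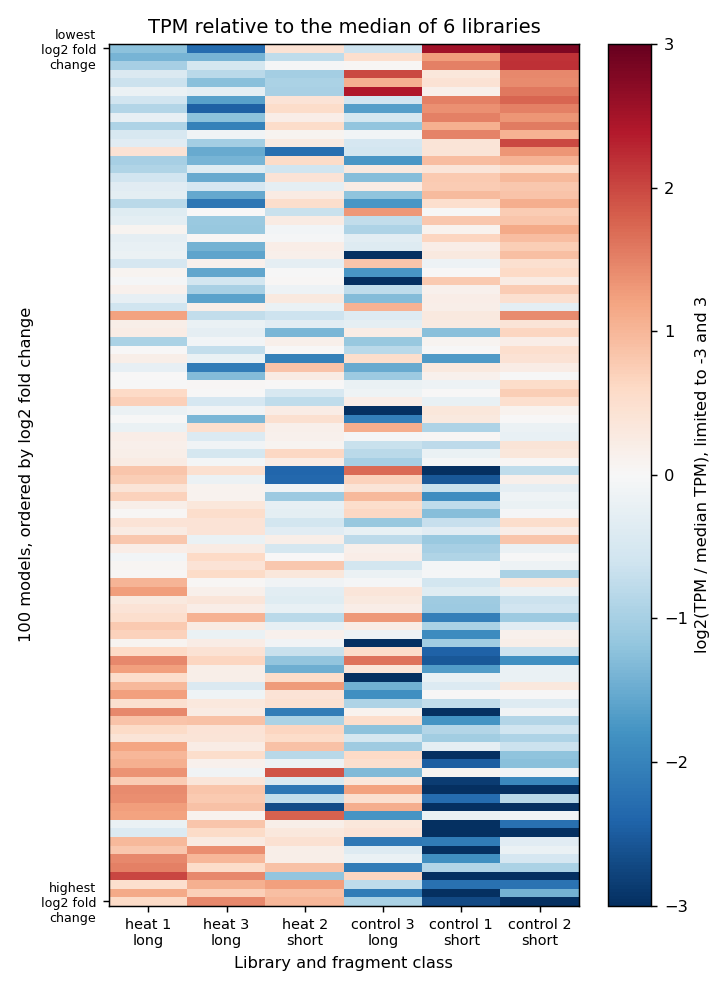
Each row is 1 of the 100 models and each column a library, with log2 of TPM over the model's median in colour (red above, blue below, limited to -3 and 3). Rows are ordered by log2 fold change, lowest at the top. The top rows are red mainly in controls 1 and 2 and the bottom rows are blue mainly there, while control 3 varies from row to row.

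In the comparison of heat with control, edgeR's quasi-likelihood test called 0 of the 100 models in either direction at an adjusted p of 0.05. Of all tested models 0.00417% were called higher and 0% lower. At an unadjusted p under 0.05, 3 of the 100 were higher and 15 lower in heat, against 13.6% and 16.2% of all tested models. On the higher side that is below the background share, and on the lower side it is near it. DESeq2 called 3 higher and 9 lower, where it called 7.19% and 7.10% of all models with an adjusted p. edgeR's exact test called 3 and 11, against 11.0% and 10.7%, and limma-voom called 0 and 0, against 0% and 0%, with 4 and 14 at an unadjusted p under 0.05 (18.7% and 13.4%). The authors' deposited table calls 3 higher and 6 lower at an FDR of 0.05, against 5.06% and 3.43% of its models.

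At an adjusted p under 0.10 the quasi-likelihood test had 3 higher and 8 lower, against 6.17% and 8.51%. It called 0 of the 100 also without a filter, with a minimum total of 60 reads and with a replicate block, where 0.0184%, 0.00419% and 0.0208% of models were called higher and 0.00231%, 0% and 0% lower.

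The number of calls depended on control 3. Without it, the quasi-likelihood test called 10 of the 100 higher and 29 lower, against 34.4% and 21.4% of all tested models, but that fit keeps only controls 1 and 2. With controls 1 and 2 left out together it called 2 higher and 0 lower, against 0.555% and 1.17%, a fit that takes its spread from the heat libraries because control 3 is alone. Each of the other 5 libraries, when omitted by itself, left 0 of the 100 called. Those fits also called 0% of all tested models in either direction, so this says nothing particular about the 100.

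The log2 fold changes of the 100 models ran from -3.61 to 2.62 with a median of -0.38, and 64 were below 0. Over all tested models the median was 0.08 and 48.1% were below 0. A difference of 1 or more on the log2 scale was seen upwards for 11 and downwards for 31 models, against 27.1% and 23.2% of tested models, while the median standard error was 0.75. Library totals moved the median over all tested models to 0.23 and DESeq2 size factors to 0.21, and the 100 models' median to -0.23 and -0.26. With 1 library left out the 100 models' median ran from -0.615 without heat 1 to -0.09 without heat 2. Without controls 1 and 2 the 100 models' median was 0.14, against 0.09 over the models tested.

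Length went with the direction. The median log2 fold change was -0.88 for the 53 models under 300 bases and 0.09 for the 47 longer ones. Over all tested models of these lengths it was -0.88 (4940 models) and 0.25 (19044 models). Among the 100, Spearman's rho of length with log2 fold change was 0.39, and with the long-minus-short-fragment difference in log2 TPM it was 0.48, as descriptions. The part of length in the fold changes was not tested.

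All 3 heat libraries were above all 3 controls in TMM-scaled CPM for 6 of the 100 models and below them for 11, where 22.6% and 16.7% of tested models were. Other scalings gave similar counts, 8 and 10 with library totals (23.4% and 12.9% of tested models) and 6 and 10 with DESeq2 size factors (25.3% and 13.9%). TPM, which also divides by each library's effective lengths, gave 15 and 7 (27.4% and 8.63%). The 6 on the higher side had log2 fold changes of 0.66 to 2.62 and adjusted p-values of 0.0755 to 0.375 by edgeR's quasi-likelihood method. On the lower side the 11 ran from -1.06 to -3.47, with edgeR adjusted p-values of 0.0755 to 0.258. The choice of models by median TPM over both groups may itself lower such counts without overlap, and its part was not tested.

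The largest differences without overlap on the higher side were at ranks 54 and 13. TR14970|c0_g1_i1|m.29462, of 1020 coding bases and rank 54, had 1432, 1932 and 2632 TPM in heat and 148, 93.0 and 505 TPM in the controls. In TMM-scaled CPM it stood at 5528 ± 1761 in heat and 896 ± 636 in the controls (SD, n = 3 per group). edgeR's quasi-likelihood test gave a log2 fold change of 2.62 ± 0.77 (standard error), adjusted p = 0.0854. Each of the heat libraries was above all controls, control 3 being the nearest. DESeq2 gave an adjusted p of 0.00173, and without control 3 the quasi-likelihood test gave 0.00239. Without controls 1 and 2 the log2 fold change was 1.75 and the adjusted p 0.427, so that the adjusted p ran from 0.00173 to 0.427 over the settings tried.

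TR67431|c0_g1_i1|m.129800, of 546 bases and rank 13, is the other isoform of the gene at rank 1. It had 5334, 4508 and 3949 TPM in heat and 153, 902 and 570 TPM in the controls. The groups did not overlap in CPM either, at 5884 ± 1898 in heat and 989 ± 774 in control libraries (SD, n = 3 per group). Its log2 fold change was 2.57 ± 0.82 (standard error), edgeR adjusted p = 0.0970. The adjusted p was 0.00337 in DESeq2 and 0.0214 in the quasi-likelihood test without control 3, and it reached 0.289 without heat 3. Without controls 1 and 2 the log2 fold change was 2.83, adjusted p = 0.245 in edgeR. Of the gene's median TPM, rank 1 held 85.5% and this isoform 14.6%.

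On the lower side the largest differences without overlap were at ranks 59 and 64. The model at rank 90 had a log2 fold change of -3.61, but its groups overlapped. TR15947|c0_g1_i1|m.31368, of 180 bases and rank 59, had 340, 527 and 340 TPM in heat and 2151, 3991 and 1263 TPM in the controls. In CPM these were 47.5 ± 8.30 in heat and 529 ± 365 in the controls (SD, n = 3 per group), and every heat library was below every control. Its log2 fold change was -3.47 ± 0.71 (standard error), edgeR adjusted p = 0.0755, the smallest among the 100 models and shared with 1 other. With fragment length in bases as a covariate the adjusted p was 0.0466 and the log2 fold change -2.83, DESeq2 gave 0.000236, and the quasi-likelihood test without control 3 gave 0.000176. Without controls 1 and 2 the log2 fold change shrank to -1.75, adjusted p = 0.0781 in edgeR, and with fragment class as a covariate it was -2.76, adjusted p = 0.0809. The highest adjusted p over the settings tried was 0.289, without heat 3.

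TR43011|c0_g1_i3|m.84239, of 315 bases and rank 64, had 425, 819 and 585 TPM in heat and 2416, 3836 and 865 TPM in the controls. Control 3 was close to heat 2, and the groups did not overlap. CPM was 307 ± 48.0 in heat and 2024 ± 1446 in control libraries (SD, n = 3 per group). Its log2 fold change was -2.72 ± 0.78 (standard error), edgeR adjusted p = 0.0841. DESeq2 gave 0.00852, and the quasi-likelihood test without control 3 gave 0.000970. The size of the difference depended on controls 1 and 2, since without them the log2 fold change was -0.72, adjusted p = 0.526 in edgeR, the highest over the settings tried. With fragment class as a covariate it was -1.89, adjusted p = 0.171.

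**Figure D4:**
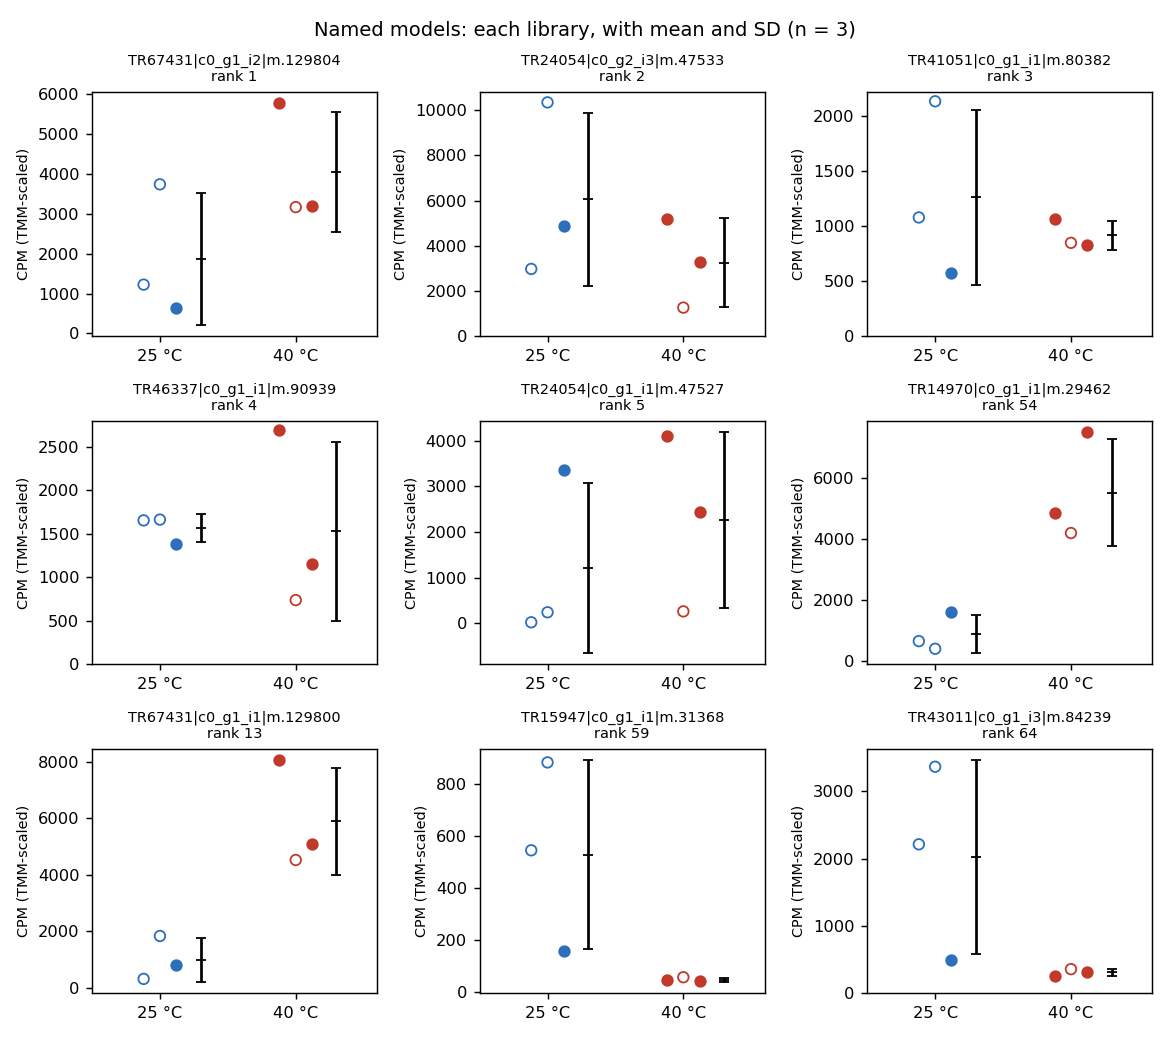
TMM-scaled CPM of the 5 models of highest median TPM and of the 4 with the largest differences without overlap, by library. Points are libraries, filled for long and open for short fragments, and bars are the mean and SD (n = 3 per group). Ranks 54, 13, 59 and 64 show no overlap between 25 °C and 40 °C, and rank 5 follows fragment class.

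The difference between heat and control went with fragment class. Among the long-fragment libraries (heat 1 and 3 against control 3), the median difference over the 100 models was 0.26 in log2 CPM, and among the short-fragment libraries (heat 2 against controls 1 and 2) it was -0.995. Over all tested models these medians were -0.01 and 0.25. These values use TMM scaling alone, with factors of 1.27 for heat 2 and 0.92 and 0.89 for controls 1 and 2. A higher factor lowers a library's CPM, and no other scaling is given for these values. In the first comparison higher and in the second lower were 47 of the 100 models, against 14.5% of tested models. Of the others, 17 were higher in heat in both classes (35.1% of tested models), 32 lower in both (30.9%), and 4 lower in the first and higher in the second (19.5%). The 47 comprised 29 of the 53 models under 300 bases and 18 of the 47 longer models, where 19.0% and 13.3% of tested models of those lengths showed this pattern. The comparisons have no library in common and no replicates on 1 side each, so these counts have no test. The second rests on controls 1 and 2, which stand apart. The choice by median TPM over all 6 libraries may also favour models that are high in heat 1, heat 3 and controls 1 and 2. It may disfavour the reverse pattern, and the part of that choice in the 47 and the 4 was not tested.

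**Figure D5:**
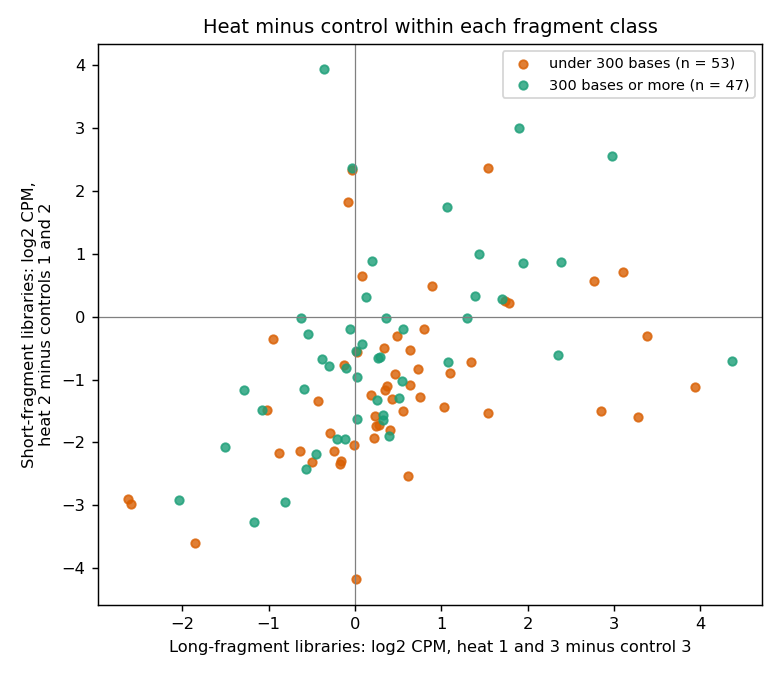
Heat-minus-control difference in log2 CPM of each of the 100 models among long-fragment libraries (x axis) and among short-fragment libraries (y axis), coloured by coding length. The lower right part, higher in heat on the x axis and lower on the y axis, holds 47 points.

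Fragment class also separated some models at both temperatures. In TMM-scaled CPM all long-fragment libraries were above all short-fragment libraries for 15 of the 100 models and below them for 19, against 10.3% and 8.87% of tested models. Above were 11 of the 47 models of 300 bases or more and 4 of the 53 shorter ones, and below were 4 and 15. Controls 1 and 2 were above the other 4 libraries for 39 of the 100 models (27.9% of tested models) and below them for 9 (36.9%). Adding fragment class to the quasi-likelihood model gave 0 higher and 0 lower of the 100, against 0.0542% and 0.0250% of tested models. Fragment length in bases gave 0 and 3, against 1.82% and 1.28%. The part of fragment length in the differences between heat and control was not tested beyond these values.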

How the data were processed

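Leaf total RNA was sequenced on a MiSeq as 76-base read pairs from TruSeq libraries, per the labels' protocols. Salmon was run by the authors, per the submitters' processing notes. The deposited files hold estimated counts, TPM, lengths and effective lengths per model, per the file headers. Salmon's version and reference are not given in the sources used. The authors' deposited table gives a log2 fold change, p-value and FDR, per the file headers. Its fold changes correlated at -1.00 with an edgeR fit on library totals over 23984 models, so their sign was reversed.

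Counts were rounded and analysed with edgeR 4.0.16 (R 4.3.3). Models needed the equivalent of 10 reads in 3 libraries and 15 reads in total. After TMM scaling, the groups were compared by the robust quasi-likelihood test, with Benjamini-Hochberg adjustment over all tested models. The standard error is the fold change divided by the root of F. DESeq2 1.42.0 and limma 3.58.1 were alternatives, and the edgeR fit was tested on simulated data. Log2 CPM used a prior count of 1. Fragment length was read as length minus effective length (median, models above 1000 bases). Classes were split at 150 bases, after seeing the data.

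The models and lists were chosen with earlier results of these data known. The rule for naming took the 5 models of highest median TPM and, among models without overlap in CPM, up to 2 with the largest log2 fold change in each direction. No gene list could be applied.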

Additional observations from a re-analysis of the deposited data

How the results depend on the processing

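Of the 100 models, the 0 called higher and 0 called lower in heat became 3 and 9 in DESeq2, 3 and 11 in edgeR's exact test, 3 and 8 at an adjusted p of 0.10, 0 and 3 with fragment length in bases, and 2 and 0 without controls 1 and 2. With 1 library left out the ranges were 0 to 10 and 0 to 29, highest without control 3. The remaining settings, DESeq2 size factors, library totals, no filter, a minimum total of 60 reads, limma-voom, effective lengths as offsets, models summed to genes and fragment class, gave 0 and 0. Size factors, library totals and effective lengths each called 0.00417% of all tested models higher and 0% lower, so 0 of the 100 was near that share. No share is given for models summed to genes. The replicate block also gave 0 and 0. Replicate numbers were treated as names only, because the labels give no pairing. Correlations of deviations were 0.01, 0.18 and 0.35 between same-numbered libraries and ran from -0.31 to 0.28 between differently numbered ones. Whether libraries were paired was not tested. The models without overlap, 6 higher and 11 lower, became 30 and 19 without controls 1 and 2, and ran from 6 to 14 and from 10 to 41 with 1 library left out. Fewer libraries make non-overlap easier for any model. No share over all tested models is given for these fits, so the rises are not a result about the 100. The difference in share of reads, 0.755 percentage points, became -1.93 among short-fragment libraries, and ran from -1.20 to 2.19 with 1 library left out. The difference in share of TPM stayed above 0 in every setting run, at 0.297 to 5.02. That is a description only, because TPM also chose the models and the settings reuse the same libraries. The list leaned to the heat libraries, since 80 of the 100 stayed by heat medians, against 57 by control medians. Each library's own first 100 took 25.96%, 17.1% and 23.68% of TPM in heat. In the controls they took 18.49%, 23.89% and 22.1%, and the groups overlapped. Of the 100 models, 53 stayed in the first 100 by reads alone, 47 among models of at least 300 bases, 57 by control libraries and 55 by short-fragment libraries. For the named models 147 of 171 values kept direction and side of the threshold, 13 passed it, and 11 changed sign. TR46337 went from -0.04 to 0.10 with DESeq2 size factors, 0.067 with library totals, 0.15 in DESeq2, 0.14 with effective lengths and 0.12 without controls 1 and 2, and from -0.67 to 0.37 with 1 library left out. TR41051 was 0.65 without controls 1 and 2 and ran from -0.65 to 0.11 with 1 library left out, and TR24054|c0_g1_i1|m.47527 was -0.59 without controls 1 and 2. With 1 library left out TR24054|c0_g1_i1|m.47527 ran from 0.17 without heat 1 to 4.27 without control 3 (edgeR adjusted p = 0.0552), against 0.91 with all libraries. TR67431|c0_g1_i2|m.129804 was 2.08 without control 2 and 2.65 without controls 1 and 2, against 1.12, and TR24054|c0_g2_i3|m.47533 ran from -1.37 without heat 1 to -0.31 without control 2, against -0.91. The median over the 100 models, -0.38, ran from -0.615 to -0.09. The cause was not tested. Depth limits low values, since 3 reads were 4.11 CPM in control 2.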
